A study of Mus musculus with 8 samples.

Results

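Antibody genes were followed in the adult mouse oviduct after neonatal treatment with genistein (Gen), an estrogenic isoflavone of soy. The genes of the immunoglobulin heavy, kappa and lambda chains, the joining chain gene Igj and the polymeric immunoglobulin receptor gene Pigr were taken by gene name, and further heavy, kappa and lambda probes by the words of their description. The helicase gene Ighmbp2 and the surrogate light chain gene Igll1 were not counted. Of the 41174 noncontrol probes on the array, 62 were members, 46 of them by name and 16 by description only. Heavy chains had 32 of these probes, kappa chains 19, lambda chains 8, Igj 2 and Pigr 1.

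All 8 mice were CD-1 females injected subcutaneously on PND1–PND5, the 4 controls with corn oil and the 4 Gen-treated mice with Gen in corn oil at 50 mg/kg/day. As adults aged 6–8 weeks, both groups were superovulated with equine and then human chorionic gonadotropin (hCG) and were mated, so that the hormones and the mating were common to all of them. The tissue dates from GD2, at 48 hr after hCG, and was freed of embryos. Each sample held both oviducts of 1 mouse and was hybridized to 1 Agilent array with 1 dye (Cy3). The paper describes its controls as littermates of the Gen-treated mice, and the labels do not say which mice shared a litter.

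An antibody consists of heavy and light chains, and each chain joins a variable region that binds antigen to a constant region. The constant region of the heavy chain sets the class, such as IgM (mu chain), IgA (alpha chain) or IgG (gamma chains), and B cells secrete the finished molecule once they have become plasma cells. IgA and IgM polymers are held together by the joining chain, and Pigr on epithelial cells binds these polymers and carries them through the cell to the lumen. IgA and IgG are both known in secretions of the female reproductive tract.

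Signals are scaled intensities, and a probe was counted as measured in a group where the scanner software called it well above background on all 4 arrays. Of the 62 members, 45 were well above background on each of the 8 arrays. In 10 this held on all 4 Gen arrays but not on all 4 control arrays. It held on fewer arrays in 6 and on none for Igkv9-123. The markers Igj and Ighm were among the 45. Between 25391 and 28949 probes were well above background on the control arrays and between 29539 and 31486 on the Gen arrays. Controls and Gen-treated mice were hybridized on separate slides, and a slide effect and a treatment effect cannot be told apart here. In whole oviducts, fewer cells of a type and less RNA per cell cannot be told apart either.

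Because probes of this family differ in what they recognize, the 60-base probe sequences behind the main results are given here, 5′ to 3′. The gene name in the files does not always give the chain part that a probe reads. Probe A_52_P571419, named by an Ensembl transcript, ends in the tail of the secreted mu chain (mm7, chr12:110942239-110942298, minus strand). Probe A_51_P509679, named after the heavy chain variable family Igh-VJ558, lies at chr12:110781031-110781090 beside the I exon of alpha and was read as alpha. Capitals mark the 11-base and 10-base runs that both share, in the tail by which IgM and IgA polymers bind the joining chain.
mu tail, A_52_P571419: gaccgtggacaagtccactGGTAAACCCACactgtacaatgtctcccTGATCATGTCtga
alpha tail, A_51_P509679: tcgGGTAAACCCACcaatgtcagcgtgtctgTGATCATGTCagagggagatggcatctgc

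The gamma probes show how close the IgG subclasses are, which is why each is given as its own probe. Capitals mark an 11-base run common to all 3. IgG1 (Igh-4, now Ighg1) was read at chr12:110850402-110850461. The probe named Igh-1a is labelled IgG2a here after that name only. It and a gamma chain whose subclass the files do not give (Ighg) were placed by the array design on unlocalized sequence of chromosome 12.
IgG1, A_51_P461067: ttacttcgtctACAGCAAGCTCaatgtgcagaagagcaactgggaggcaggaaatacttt
IgG2a, A_51_P311235: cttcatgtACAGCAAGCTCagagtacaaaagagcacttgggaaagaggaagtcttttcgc
IgG, A_52_P74106: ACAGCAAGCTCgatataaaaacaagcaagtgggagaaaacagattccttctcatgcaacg

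Variable region probes overlap in sequence, so neighbours of a family may bind RNA of the same chains. The 4 kappa probes below, all well above background on all 8 arrays, share a 19-base run (capitals).
Igkv2-116, A_52_P630429: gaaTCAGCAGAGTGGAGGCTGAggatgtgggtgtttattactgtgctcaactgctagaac
Igkv1-133, A_51_P414879: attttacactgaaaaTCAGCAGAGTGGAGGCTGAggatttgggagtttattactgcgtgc
Igkv1-132, A_52_P765764: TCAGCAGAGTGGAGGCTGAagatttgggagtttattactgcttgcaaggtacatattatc
Igk-V1, A_52_P125897: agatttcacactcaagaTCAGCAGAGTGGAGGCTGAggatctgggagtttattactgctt

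Names also misled for heavy chain variable probes. A_51_P117903 carries the name Ighg of a gamma chain, but its letters are variable region, and with A_51_P155336 (Igh) it shares a 12-base run (capitals). These are the heavy variable members with the largest rise among probes above background throughout and with the largest fitted rise of any member.
Ighg, A_51_P117903: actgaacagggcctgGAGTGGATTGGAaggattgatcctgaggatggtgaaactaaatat
Igh, A_51_P155336: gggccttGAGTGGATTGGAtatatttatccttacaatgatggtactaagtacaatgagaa

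The lambda probes A_51_P503757 and A_52_P383114 share a 19-base run (capitals). The design places the first of them between 18612988 and 18634805 on chromosome 16, far apart for a 60-base probe, as for a sequence taken from a rearranged gene in which the variable and joining segments have been brought together.
Igl-V1, A_51_P503757: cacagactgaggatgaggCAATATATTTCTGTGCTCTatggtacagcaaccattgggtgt
Igl-V1, A_52_P383114: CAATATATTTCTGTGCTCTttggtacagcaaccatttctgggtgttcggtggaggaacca

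Over all 1891 pairs of members, 16 pairs shared a run of 20 bases or more (11 heavy, 4 kappa and 1 lambda), and none joined different chains. The longest such run had 35 bases. The letters TATTACTG, read on either strand, stand in the conserved end of many variable segments, and they were in 6 of 19 heavy variable and 8 of 19 kappa probes. They were in none of the 8 lambda probes and in 0.345% of all noncontrol probes. Members are therefore not replicates of one another.

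Most antibody chain probes gave higher signals in oviducts of Gen-treated mice, and 58 of the 62 members had a higher mean there. All 45 members well above background on all 8 arrays had a higher mean in Gen-treated mice, by 0.92 to 2.70 on the log2 scale, with a median log2 fold change of 1.89 (3.7-fold). Over all probes of the array that were well above background on all 8 arrays, the median log2 fold change was -0.01 and 49.1% were above 0. Limma called 30 of the 62 members higher at an adjusted p under 0.05 and 0 lower, beside 2.17% higher and 14% lower among all 41173 probes tested. Most of the lower calls on the array came from dim probes, since 63.6% of the 7855 probes that no array measured well above background were called lower (4996 of 5782 lower calls). No member was lower at an unadjusted p under 0.05 in limma or in the methods' t-test.

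Of the 45 members above background throughout, 25 were called higher and 0 lower, beside 1.92% higher and 2.44% lower of such probes on the whole array. A rise of at least 1 on the log2 scale was seen in 42 of the 45, beside 1.43% of such probes. In 21 of the 45 the 4 Gen-treated mice all lay above the 4 controls, which was so in 5.1% of such probes. At the study's unadjusted p under 0.01, 33 members were higher, beside 2.56% of all probes. The adjusted calls were less firm than the direction: when dim probes were left out of the fit, 14 of the 55 members tested were called higher, beside 0.604% of probes. In the fit of all probes, the count of members called higher was 0 without Gen replicate 1, 2 or 3. It was 1 without control replicate 1, although 38 to 45 members in these fits had an unadjusted p under 0.05 in limma. All 45 members kept a higher mean in Gen-treated mice under each alternative setting and with each array left out.

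**Figure D1:**
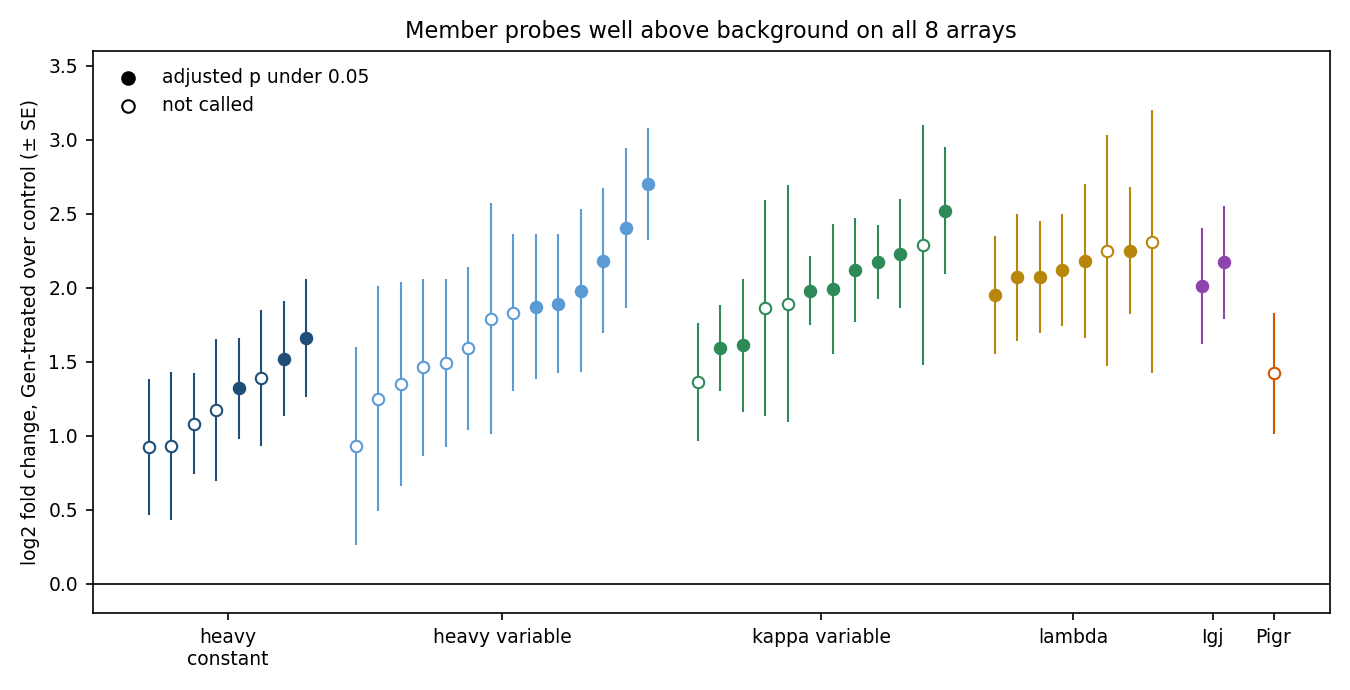
Log2 fold change of Gen-treated over control mice (vertical axis, with the limma standard error) for the 45 member probes well above background on all 8 arrays, grouped along the horizontal axis by chain. Filled points passed an adjusted p under 0.05 and open points did not, and every point lies above 0, from 0.92 to 2.70.

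The joining chain, which links IgA and IgM into polymers, rose at both of its probes. Probe A_51_P150710 of Igj gave signals of 6384, 20476, 7540 and 6300 in controls 1 to 4 and of 28985, 29276, 48170 and 39842 in Gen-treated mice 1 to 4. Each Gen-treated mouse lay above each control, and control 2 stood well above the other controls. The log2 fold change was 2.01 (SE 0.39, adjusted p = 0.0236 in limma), and the exact permutation p was 0.0286, the smallest that 8 arrays allow. With dim probes left out of the fit the adjusted p was 0.0526. Without control 2 the log2 fold change was 2.41.

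The second Igj probe, A_51_P150705, read another stretch of the same gene and gave the same picture. Its signals were 2141, 5644, 2197 and 1878 in controls and 9221, 9030, 17079 and 14451 in Gen-treated mice. The groups did not overlap, and control 2 again was the highest control. Its log2 fold change was 2.17 (SE 0.38, adjusted p = 0.0236 in limma, and 0.0413 with dim probes left out).

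IgA is the main class of mucosal secretions, and its 3 constant region probes all rose. Probe A_51_P180159 had signals of 48531, 168474, 51739 and 47998 in controls and of 213341, 176368, 231506 and 233148 in Gen-treated mice. Only control 2 came near the treated mice, and the groups did not overlap. The log2 fold change was 1.66 (SE 0.40, adjusted p = 0.0264 in limma). The tail probe A_51_P509679 gave 152753, 343560, 128964 and 124333 in controls and 455442, 334411, 390345 and 547496 in Gen-treated mice. Here control 2 exceeded Gen-treated mouse 2, and the spot was saturated on 1 array.

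The tail probe had a log2 fold change of 1.32 (SE 0.34, adjusted p = 0.0314 in limma), and the remaining alpha probe, A_51_P187645, one of 1.52 (SE 0.39, adjusted p = 0.0321 in limma). With dim probes left out of the fit none of the 3 alpha probes passed (adjusted p = 0.0831, 0.0927 and 0.0945). The probe A_51_P270661 at the I exon of alpha, from which germline transcripts start before a B cell switches to IgA, was near background. Its signals were 34.0 to 55.5 in controls, above background on 2 arrays, and 54.1 to 77.2 in Gen-treated mice. The groups overlapped, and the log2 fold change of 0.50 (SE 0.19) did not pass (adjusted p = 0.122 in limma).

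IgM is the first class that a B cell makes. Probe A_52_P358360 of the mu chain (Igh-6, now Ighm) gave 5248, 7239, 8285 and 8292 in controls and 12868, 30992, 10888 and 11933 in Gen-treated mice. The 4 treated mice lay above the 4 controls, and Gen-treated mouse 2 stood far above the other three. The log2 fold change was 1.08 (SE 0.34), with a limma adjusted p of 0.072 and an exact permutation p of 0.0286. Without Gen replicate 2 it was 0.73.

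The other mu probes did not pass either, and their groups overlapped. A_51_P485421 ranged from 791 to 1925 in controls and from 1611 to 7160 in Gen-treated mice (log2 fold change 1.17, SE 0.48, adjusted p = 0.157 in limma). The secreted tail, A_52_P571419, ranged from 3578 to 7873 in controls and from 5311 to 21006 in Gen-treated mice (log2 fold change 0.92, SE 0.46, adjusted p = 0.237 in limma). In both, Gen-treated mouse 2 was the highest. A_52_P358360 lies downstream of the secreted tail, on the side of the membrane exons. The log2 fold change of the secreted tail minus that of the downstream probe was -0.16 (SE 0.30, exact permutation p = 0.60), so a different change of the 2 ends was not detectable with these arrays.

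No IgG probe passed, and mice of the same group differed widely. For IgG1, the probe above background throughout, A_51_P122752, gave 273, 565, 593 and 379 in controls and 446, 496, 1077 and 1939 in Gen-treated mice. Treated mice 3 and 4 were high and treated mice 1 and 2 lay among the controls (log2 fold change 0.93, SE 0.50, adjusted p = 0.267 in limma). The other IgG1 probes, above background on 3 control arrays, had log2 fold changes of 1.80 (SE 0.80) and 2.01 (SE 0.80), and neither passed. The gamma probe of unstated subclass, A_52_P74106, gave 388, 767, 793 and 1488 in controls and 2305, 1362, 3655 and 1424 in Gen-treated mice (log2 fold change 1.39, SE 0.46, adjusted p = 0.0818 in limma). The highest control reached into the treated group.

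Signals of the probes named Igh-1a, labelled IgG2a here after that name, differed widely between mice within both groups. Probe A_51_P311235 (Igh-1a) gave 8.81, 448, 210 and 372 in controls and 261, 2.95, 998 and 4.44 in Gen-treated mice. It was well above background on 3 control and 2 Gen arrays, and the low mice were control 1 and Gen-treated mice 2 and 4. The second probe, A_51_P351953, gave 9.69, 158, 77.5 and 141 in controls and 101, 22.9, 251 and 31.9 in Gen-treated mice, with the same 3 mice lowest, and all 4 Gen arrays and 3 control arrays measured it well above background. The fitted log2 fold changes were -1.62 (SE 2.14) and 0.04 (SE 1.06), with limma adjusted p-values of 0.672 and 0.987. As background, IgG2a and IgG2c are forms of the same locus that different mouse strains carry, and CD-1 is an outbred stock. Whether these mice differ in that locus, and which of these forms the probes read, was not tested. A low signal here is therefore not a measure of IgG2a alone.

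**Figure D2:**
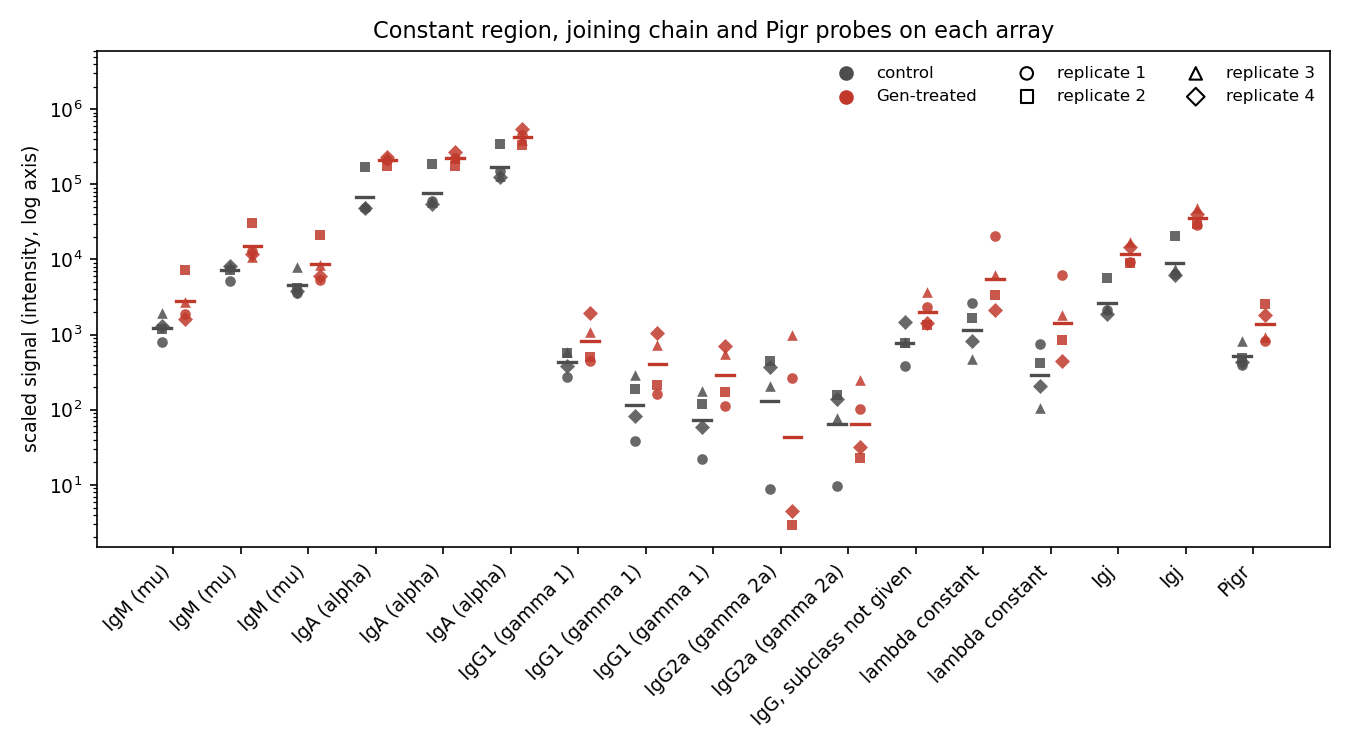
Scaled signal (vertical axis, logarithmic) of each probe for a constant region, Igj and Pigr on each array, with 1 marker shape per replicate number, controls in grey and Gen-treated mice in red, and bars at the mean of the log2 signals. The I exon probe of alpha is not drawn. The Igj groups do not overlap, and the probes labelled IgG2a are low in control 1 and in Gen-treated mice 2 and 4.

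Whether one class changed more than another was compared within arrays, so that an effect shared by a whole array drops out. Of 7 pairs compared, none passed after adjustment. Each class was represented by its brightest probe. For mu this was A_52_P358360, on the side of the membrane exons, whereas the alpha probe reads the tail. The pairs with mu therefore do not compare like parts of the chains. Pairs of the other classes with the secreted mu tail, A_52_P571419, were not computed. Relative to mu (A_52_P358360), the log2 fold change was higher by 0.24 for the alpha tail probe A_51_P509679 (SE 0.61), which was saturated on 1 array, and by 0.31 for the gamma probe of unstated subclass (SE 0.67). With the unsaturated alpha probes in its place, an alternative added after the data were seen, alpha exceeded mu by 0.58 for A_51_P180159 (SE 0.64, exact permutation p = 0.486) and by 0.44 for A_51_P187645 (SE 0.65, exact permutation p = 0.514). IgG1 minus mu was -0.14 (SE 0.77). The lambda constant region exceeded mu by 1.17 (SE 1.11), Igj exceeded it by 0.93 (SE 0.64) and Pigr by 0.34 (SE 0.33). Igj exceeded Pigr by 0.59 (SE 0.67). By exact permutation the adjusted p-values of the 7 pairs were 0.70 to 0.886, and the standard errors show that differences of this size could not be resolved with 4 mice a group.

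By chain, the members above background throughout had median log2 fold changes of 1.5 for 22 heavy chain probes, 1.99 for 12 kappa probes and 2.15 for 8 lambda probes. Within the heavy chains the median was 1.81 for the 14 variable probes and 1.24 for the 8 constant region probes. All of these probes had higher means in Gen-treated mice. Of the 17 members outside them, 4 had lower means, 3 of the heavy chain and 1 kappa, and limma called 0 of these 4 lower (0 also at an unadjusted p under 0.05). These medians are descriptions without a test, since probes of a locus share sequence and mice.

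Heavy chain variable probes bind the antigen-contacting part of the chain. Of 19, 9 were called higher, 0 lower and 10 not called, beside 2.17% higher among all probes. With dim probes left out 3 were called higher, beside 0.604% of probes. Among these 3, D17387 and A_51_P155336 passed the filter through the Gen arrays only. They were well above background on 2 and 1 control arrays. The largest rise among those above background throughout was that of A_51_P117903, at 256, 214, 92.1 and 114 in controls and 1538, 699, 1049 and 918 in Gen-treated mice. The treated mice lay far above the controls, with a log2 fold change of 2.70 (SE 0.38, adjusted p = 0.0236 in limma, and 0.0274 with dim probes left out). A_51_P391836 (Igh-VJ558) gave 1411, 4830, 908 and 1149 in controls and 7727, 15848, 7094 and 6311 in Gen-treated mice. Its groups did not overlap either (log2 fold change 2.40, SE 0.54, adjusted p = 0.0239 in limma, and 0.0706 with dim probes left out).

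Another heavy variable probe, A_51_P275642 (Ighg), ran parallel to it, at 1818, 5113, 1092 and 1304 in controls and 7588, 14456, 7831 and 6579 in Gen-treated mice (log2 fold change 2.18, SE 0.49, adjusted p = 0.0239 in limma, and 0.0703 with dim probes left out). A_52_P139027 (Igh-VJ558) gave 1200, 6705, 1650 and 1890 in controls and 6293, 5433, 12550 and 9219 in Gen-treated mice. Here control 2 lay inside the treated range (log2 fold change 1.83, SE 0.53, adjusted p = 0.0537 in limma). A_51_P155336 (Igh) was well above background on 1 control array and all 4 Gen arrays, at 5.92 to 41.9 in controls and 102 to 696 in Gen-treated mice. Its fitted log2 fold change of 4.27 (SE 0.79) rests on controls near background. In 13 of 14 heavy variable probes above background throughout, control 2 was the highest control.

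Kappa is the light chain of most mouse antibodies. Of 19 kappa probes, all in variable segments, 10 were called higher, 0 lower and 9 not called, beside 2.17% higher among all probes. With dim probes left out 7 were called higher, beside 0.604% of probes. Among these 7, ENSMUST00000089820 passed the filter through the Gen arrays only. The largest rise among those above background throughout was that of ENSMUST00000080852 (A_52_P444260), at 160, 193, 68.2 and 209 in controls and 1270, 453, 894 and 917 in Gen-treated mice. The groups did not overlap (log2 fold change 2.52, SE 0.43, adjusted p = 0.0236 in limma, and 0.0406 with dim probes left out). Igkv1-132, shown above, gave 260, 255, 200 and 171 in controls and 860, 528, 1858 and 1307 in Gen-treated mice. All treated mice lay above all controls (log2 fold change 2.23, SE 0.37, adjusted p = 0.0236 in limma).

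The other kappa probes printed above gave like values, and their groups did not overlap. The log2 fold changes were 2.17 for Igkv2-116 (SE 0.25), 2.12 for Igkv1-133 (SE 0.35) and 1.99 for Igk-V1 (SE 0.44). With dim probes left out, the first pair passed and the printed Igk-V1 probe did not (adjusted p = 0.0686 in limma). Another Igk-V1 probe at an overlapping position, A_52_P957659, had a log2 fold change of 2.29 (SE 0.81). Its groups overlapped, and it did not pass (adjusted p = 0.104 in limma). ENSMUST00000089820 was not well above background on any control array and was so on all 4 Gen arrays, at 74.1 to 310, which puts it at least 3.7-fold higher in Gen-treated mice (adjusted p = 0.0236 in limma). ENSMUST00000089795 was measured on the same arrays only. Its bound was 0.928-fold, which assures no rise, and it did not pass (adjusted p = 0.175 in limma). Igkv9-123, which no array measured well above background, had a fitted log2 fold change of -0.64 (SE 0.43), and a second dim kappa probe, Igk-V8-16, one of 0.70 (SE 0.78). No probe for the kappa constant region was among the members.

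Lambda chains are the minor light chain of the mouse, and all 8 lambda probes had a higher mean in Gen-treated mice, by 1.95 to 2.31 on the log2 scale. All 6 variable probes rose, with log2 fold changes of 1.95 to 2.25 and no overlap between groups. Of probes above background throughout on the whole array, 5.1% had all Gen-treated mice above all controls. With dim probes left out, 3 of the 6 passed, beside 0.604% of probes. All 6 carry the name Igl-V1, and A_52_P450276, A_52_P672903 and A_52_P829408 lie at overlapping positions, so they are not separate readings. Igl-V1 (A_51_P503757) gave 890, 1323, 480 and 471 in controls and 5628, 1958, 4002 and 3098 in Gen-treated mice (log2 fold change 2.25, SE 0.43, adjusted p = 0.0236 in limma). Gen-treated mouse 1 was the highest treated mouse in all 8 lambda probes. The constant region probe A_51_P503756 gave 2671, 1660, 472 and 815 in controls and 20259, 3339, 6158 and 2096 in Gen-treated mice. Its groups overlapped and the spread between mice was wide (log2 fold change 2.25, SE 0.78, adjusted p = 0.0959 in limma). The other constant region probe among the members, A_52_P450277, had a log2 fold change of 2.31 (SE 0.89, adjusted p = 0.13 in limma). A further lambda probe outside the members is given below.

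Pigr, the epithelial receptor for polymeric antibodies, was the member that is not made by B-lineage cells. Its probe gave signals of 395, 481, 826 and 438 in controls and of 815, 2592, 921 and 1802 in Gen-treated mice. Gen-treated mouse 1 lay just under control 3, so the groups overlapped, and Gen-treated mice 2 and 4 were clearly higher. The log2 fold change was 1.42 (SE 0.41), with a limma adjusted p of 0.0511, an unadjusted p of 0.00834 and an exact permutation p of 0.0571. It passed without control replicate 3 (log2 fold change 1.65, adjusted p = 0.0368) and without scaling between arrays (log2 fold change 1.66, adjusted p = 0.0359). Of the 12 genes of oviduct epithelium set beside it, including Ovgp1, Epcam and Krt8, limma called 0 higher (0 also at an unadjusted p under 0.05), and the tight junction gene Cldn3 fell by 0.67 log2 units (SE 0.17, adjusted p = 0.0287 in limma).

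Different mice stood out for different chains. Control 2 was the highest control in all 3 alpha probes, both Igj probes, 13 of 14 heavy variable, 6 of 12 kappa and 6 of 8 lambda probes, but in none of the 3 mu probes. Relative to the control mean, control 2 was at 1.2 for alpha, 1.15 for Igj and 1.52 for the heavy variable probes on the log2 scale, and at -0.06 for mu. Among treated mice, Gen-treated mouse 2 was highest in 3 of 3 mu probes, mouse 4 in 3 of 3 alpha, mouse 1 in 8 of 8 lambda, and mouse 3 in 9 of 12 kappa and both Igj probes. These positions are descriptions of single mice, and no test was made on them.

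**Figure D3:**
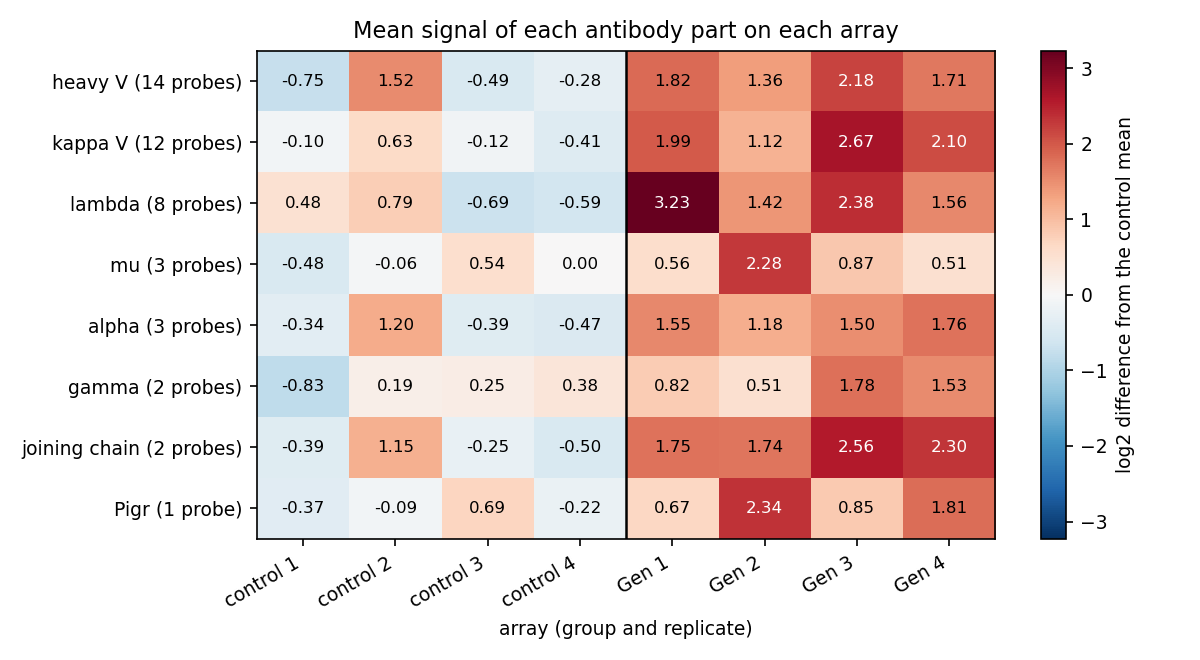
Mean log2 signal of each antibody part on each array (columns, by group and replicate number), as the difference from the mean of the 4 controls, for probes well above background on all 8 arrays. Values are printed in the cells; control 2 is high for alpha, Igj and heavy variable probes and not for mu, and Gen-treated mouse 1 reaches 3.23 for lambda.

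Immunoglobulin probes that the names and descriptions of the rule do not reach were also on the array. Within the span of the kappa members 39 further probes were described as immunoglobulin or antibody, and 22 of them were well above background on all 8 arrays. Of these 22, 21 had a higher mean in Gen-treated mice, 12 were called higher, and the median log2 fold change was 1.85. On the whole array, 1.92% of probes above background throughout were called higher. At the heavy chain locus there were 32 further probes, and the 18 above background throughout all had a higher mean, with a median of 1.77 and 7 called higher. One of these heavy locus probes, A_51_P266248, was described as the IgD constant region and was well above background on 2 control arrays. Its log2 fold change of 1.63 (SE 0.57) did not pass (adjusted p = 0.0968 in limma). A single further lambda probe, A_51_P483576, was described as joining and constant region (J-C lambda 3). It had a log2 fold change of 2.16 and was called (adjusted p = 0.0236 in limma, and 0.0324 with dim probes left out). Limma called 2 of the further kappa probes and 1 of the further heavy probes lower, and these were not measured in either group. This group was chosen after its values could be seen, and it shares the mice and the arrays with the members.

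Some genes that plasma cells need rose and others did not pass. Of 20 plasma cell genes, all detected, 5 were called higher and 0 lower, beside 2.17% higher and 14% lower among all probes. Their median log2 fold change was 0.33. Pou2af1, a coactivator of immunoglobulin transcription, rose by 1.59 (SE 0.31, adjusted p = 0.0236 in limma, and 0.0518 with dim probes left out), from 427 to 1127 in controls to 1510 to 2786 in Gen-treated mice. Tnfrsf17, the survival receptor BCMA, rose by 1.52 (SE 0.22), and Mzb1, a chaperone for IgM assembly, by 1.34 (SE 0.20), both with an adjusted p of 0.0236. Their groups did not overlap. Irf4 and Cd38 rose by 0.85 (SE 0.15) and 0.84 (SE 0.20). The secretory regulators Xbp1 (log2 fold change 0.24, SE 0.14) and Prdm1 (-0.13, SE 0.16) and the surface proteoglycan Sdc1 (-0.20, SE 0.21) did not pass, and epithelial cells are known to express several of these too.

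Most B cell genes had higher means, and few passed. Of 18 detected genes 17 had a higher mean, 3 were called higher and 0 lower, and the median was 0.93. Among all probes 2.17% were called higher. Fcmr, the receptor for the IgM constant region, rose by 2.01 (SE 0.53, adjusted p = 0.0363 in limma), with Gen-treated mouse 2 highest at 2441. The B lineage factor Pax5 rose by 1.26 (SE 0.33, adjusted p = 0.0368 in limma), and 1 of its 2 probes was called. Only 3 control arrays measured Pax5 well above background, and the same held for Cd180, the remaining called gene. Both therefore counted as detected through the Gen arrays only. Cxcr5 (1.59, SE 0.58), Ms4a1 (1.45, SE 0.70) and Tnfrsf13c (1.29, SE 0.45) did not pass. The mean log2 signal of the list was 7.52 to 8.45 on the control arrays and 8.37 to 10.02 on the Gen arrays.

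Few receptors that bind or move antibody passed. Of 14 detected genes 3 were called higher and 0 lower, beside 2.17% higher among all probes, with a median of 0.55. Fcrl1 rose by 2.21 (SE 0.52, adjusted p = 0.025 in limma), Fcrla by 1.86 (SE 0.30, adjusted p = 0.0236 in limma) and Fcamr by 1.12 (SE 0.25, adjusted p = 0.0238 in limma). Fcrl1 and Fcrla, of the Fc receptor-like kind, were each well above background on 1 control array, and the groups overlapped for Fcrl1. With dim probes left out, Fcrla passed (adjusted p = 0.0378), and Fcrl1 (adjusted p = 0.0788) and Fcamr (adjusted p = 0.0689), a receptor for IgA and IgM, did not. Fcrl5 was not measured in either group. Fcgrt, which carries IgG across cells, had a log2 fold change of 0.13 (SE 0.15), and its partner B2m one of -0.13 (SE 0.17). Fcer2a (1.26, SE 0.44) and Asgr1 (1.15, SE 0.49) did not pass.

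Genes of class switching, survival and homing had a single call. Of 16 detected genes 1 was called higher and 0 lower, beside 2.17% higher among all probes. That gene was Ccr9, a homing receptor, with a log2 fold change of 1.26 (SE 0.29, adjusted p = 0.0246 in limma). Ccl28, whose receptor Ccr10 guides IgA plasma cells to mucosa, had a log2 fold change of 0.15 (SE 0.41), and Ccr10 one of 0.58 (SE 0.66). Il6, a plasma cell growth factor, had one of -1.92 (SE 0.62, adjusted p = 0.0777 in limma), and Ccl19 one of 0.88 (SE 0.38). Of 9 surrogate light chain and recombination genes 5 were detected and 0 were called among them in limma, 0 of them also at an unadjusted p under 0.05. Dntt, which adds bases at the joins, had the largest change among them, 0.70 (SE 0.36, adjusted p = 0.253 in limma).

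Genes of other cell types were compared in the same way, beside 2.17% called higher and 14% called lower among all probes. T and natural killer cell genes had a median log2 fold change of 0.49, with 3 of 20 called higher and 1 lower, and macrophage and dendritic cell genes one of 0.39, with 3 of 16 called higher. Genes of ovarian steroidogenic cells had a median of 1.80, with 4 of 9 called higher, and mean log2 signals of 8.10 to 9.64 on the control arrays and 9.68 to 11.27 on the Gen arrays. The highest control for this list was control 3. No control array measured the called genes Cd8a (T cell list) and Lhcgr (ovarian list) well above background. Of 12 detected neutrophil and mast cell genes limma called 0, with a median of 0.30 and 0 at an unadjusted p under 0.05. Of the 5 detected blood genes 0 were called in limma and 1 was higher at an unadjusted p under 0.05, with a median of 0.64. The 9 housekeeping genes had a median of -0.05, with 0 called in limma and 0 at an unadjusted p under 0.05. With dim probes left out, 3 plasma cell, 2 macrophage and 1 antibody receptor gene were called higher, beside 0.604% of probes. The count was 0 for the B cell, T cell and ovarian lists. The methods' t-test called 0 genes of any list after adjustment. The part of any of these cells in the immunoglobulin values was not tested.

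**Figure D4:**
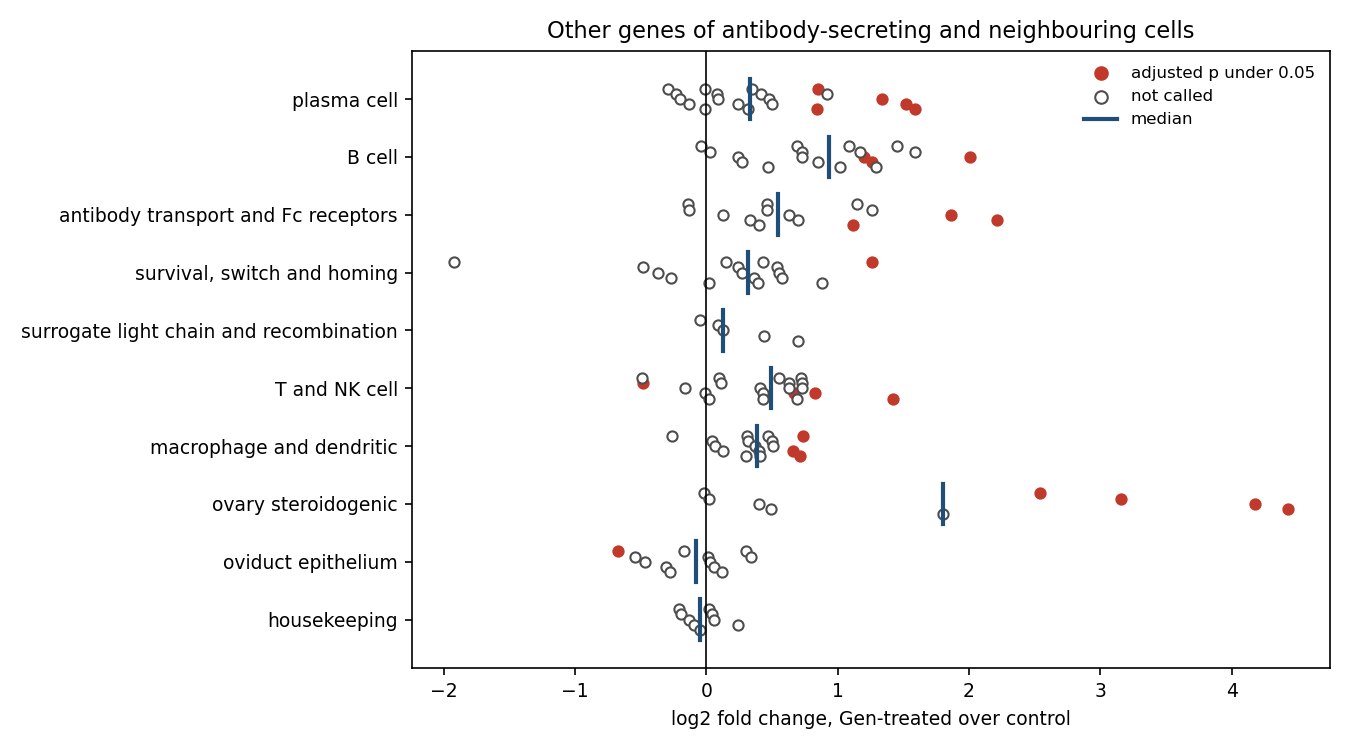
Log2 fold change of Gen-treated over control mice (horizontal axis) for genes of each list (rows) measured in at least 1 of the groups, with 1 point per gene and its best probe. Red points passed an adjusted p under 0.05 and the blue bar is the median, which is 0.93 for B cell, 0.33 for plasma cell and -0.05 for housekeeping genes.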

How the data were processed

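Oviduct RNA of 4 control and 4 Gen-treated mice was measured on 1 array each. The authors deposited Agilent Feature Extraction (version 9.5) output, whose processed signals are linear intensities, background-adjusted but unscaled across arrays. The Rosetta Resolver step of the study was not applied. Positions come from the array design (mm7). Control and outlier spots were left out, spots of a probe were averaged as log2 values, and each array was scaled to a common 75th percentile.

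Groups were compared with limma 3.58.1 in R 4.3.3 (lmFit, eBayes), with Benjamini-Hochberg adjustment over 41173 probes and a threshold of 0.05. Fold changes between members were compared by 2-sided exact permutation over 70 labellings. A list gene was represented by its probe with the highest mean signal. Named members are every constant region probe, Igj and Pigr, the 5 largest rises and falls among called members above background on all 8 arrays, and the 3 brightest; lists show up to 5 with the largest change, and others where short. Members and lists were chosen with earlier results of these data known. The steps were tested on simulated data. The number of arrays limits the precision.

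Member counts, chain medians, named members and differences between members were recomputed under alternative settings. These were quantile normalization, unscaled signals, normexp (offset 50), 2 filters that drop dim probes, a floor under low signals and outlier spots retained. Others were limma's trend and robust options, the t-test of the study's methods, the replicate number as a block and the deposited series table. Each array was also left out in turn. The differences were not recomputed with the trend and robust fit, the t-test or the block. Gene lists were refitted only with dim probes left out and by the t-test. The further immunoglobulin probes were refitted only with dim probes left out. The mu end comparison, the unsaturated alpha probes and the further immunoglobulin probes were added after the data were seen.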

Additional observations from a re-analysis of the deposited data

Results flagged for a closer look

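Of 50 groups of 4 arrays tested among the named members, 5 held an array far from the other 3 by Dixon's criterion. Chance alone flags about 1 in 20. The gap over range was computed on log2 signals, and the signals printed beside it are linear. In controls, replicate 2 was the highest for the alpha probes A_51_P187645 (184000 against 55400 to 59300, gap over range 0.943) and A_51_P180159 (168000 against 48000 to 51700, gap over range 0.940). Control replicate 2 was also the highest for the Igj probes A_51_P150710 (20500 against 6300 to 7540, gap over range 0.847) and A_51_P150705 (5640 against 1880 to 2200, gap over range 0.857). In Gen-treated mice, replicate 2 was the highest for the mu probe A_52_P358360 (31000 against 10900 to 12900, gap over range 0.840). The cause was not tested.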

How the results depend on the processing

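The direction of all 45 members above background throughout and the medians of the heavy (1.26 to 2.02), kappa (1.80 to 2.32) and lambda members (1.80 to 2.41) held under every alternative and with each array left out; without scaling the median of all probes rose to 0.24. The count of members called higher was 14 with normexp, 14 with probes above background on all 4 arrays of a group, 12 with those above background on all 8, 3 with quantile normalization, and 0 with the floor, the trend and robust fit or the t-test. It was 0 to 35 with 1 array left out. Members higher at an unadjusted p under 0.01 numbered 20 with the trend and robust fit and 20 with the t-test. At an unadjusted p under 0.05 the floor, the trend fit and the t-test each left 38. Members lower at that p numbered 0 to 1 with 1 array left out.

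The log2 fold change of Igj lost its call under the floor, the trend and robust fit, the t-test and the filter on a group (2.01 each) and under quantile normalization (2.05), with adjusted p-values of 0.0116 to 0.152 over all alternatives on the full set of arrays; with 1 array left out it was 1.84 to 2.41 and lost its call in 4 of 8 fits (without control replicate 1 or Gen replicate 1, 2 or 3). That of the alpha tail probe lost its call under these settings and the filter on all 8 arrays (1.32 each, 1.39 with quantile normalization) and with normexp (1.25), with adjusted p-values of 0.0314 to 0.222 over all such alternatives and values of 1.17 to 1.66 with 1 array left out, where it lost its call in 7 of 8 fits and kept it without control replicate 2. Pigr passed without scaling (1.66) and was 1.11 to 1.67 with 1 array left out. The mu value did not pass in any of them. The differences between members passed in none of the settings in which they were recomputed. With 1 array left out, IgG1 minus mu (-0.67 to 0.45), the unstated gamma minus mu (-0.14 to 0.84) and the secreted tail minus the downstream mu probe (-0.33 to 0.03) changed sign, and lambda constant minus mu ran from 0.46 (without Gen replicate 1) to 1.75, alpha minus mu from 0.01 to 0.70, Igj minus mu from 0.63 to 1.37, Pigr minus mu from 0.09 to 0.51 and Igj minus Pigr from 0.26 to 1.02. The causes were not tested.

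Deviations of same-numbered arrays from their group means had correlations of -0.18 to 0.11. With 4 arrays a group, these values cannot decide whether replicate numbers pair mice of the same litter. With the replicate block 0 members were called higher (46 at an unadjusted p under 0.05), and Igj (2.01, adjusted p = 0.0791) and the alpha tail (1.32, adjusted p = 0.106) lost their calls.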
